A study of Mus musculus with 18 samples.

Results

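Colony-stimulating factors and their receptors were followed in bone marrow-derived macrophages (BMDMs), through all 8 rows of the deposited table that carry the gene names *Csf1*, *Csf2*, *Csf3*, *Csf1r*, *Csf2ra*, *Csf2rb*, *Csf2rb2* and *Csf3r*, out of 20615 genes. The study asked how BMDMs of a mouse model of Sjögren's syndrome respond to apoptotic cells (ACs), with CpG as another stimulus. The model, written SjSS here, is the C57BL/6.NOD-*Aec1Aec2* mouse, which carries the NOD intervals *Idd3* (*Aec1*) and *Idd5* (*Aec2*) on the C57BL/6 (B6) background. The B6 mouse served as the control strain, and marrow came from mice aged 7 to 12 weeks. RNA of 18 samples was sequenced, with 3 samples in each of 6 groups: B6 control, B6 AC, B6 CpG, SjSS control, SjSS AC and SjSS CpG. AC samples received 5 dexamethasone-killed thymocytes per BMDM for 2 h and were washed. They were then kept for a further 3 h by the labels, while the study's methods give 4 h. Thymi came from mice of both strains, and the study's methods do not say which thymocytes each AC group received for sequencing. If their strain differed between the AC groups, it cannot be told apart from the strain of the BMDMs. CpG samples received 1 µM CpG, an oligonucleotide ligand of a Toll-like receptor, for 6 h, and control samples were left untreated.

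All 6 groups shared one feature that bears on these genes. The BMDMs were grown for 7 days in medium with 20% L929 cell supernatant, a source of M-CSF, and by the labels the treatment medium still held 5% of it. A ligand of the receptor CSF1R was thus supplied from outside, although the medium used after the wash of AC samples is described without naming the supernatant, and the counts report only the mRNA of the collected cells. The study names 3 mice of each strain for all treatments, so that samples of one strain may share a mouse across treatments, but which samples did is not given in the sources used here. The p-values of the main fit treat the samples as separate. The NOD intervals were present in every SjSS sample, so that they and any other difference between the strains cannot be told apart.

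The family consists of 3 secreted factors and 5 receptor chains. *Csf1* encodes M-CSF, which keeps macrophages alive and signals through the receptor tyrosine kinase CSF1R. *Csf2* encodes GM-CSF, whose receptor pairs the alpha chain from *Csf2ra* with the common beta chain from *Csf2rb*. *Csf2rb2* is a neighbouring copy found in mice that encodes a beta chain specific to IL-3. *Csf3* encodes G-CSF, and its receptor gene *Csf3r* is used most by neutrophils and their precursors. Macrophages are known to release GM-CSF and G-CSF after microbial stimuli, and mRNAs of both factors are known for rapid decay through AU-rich elements.

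The copies *Csf2rb* and *Csf2rb2* lie side by side on chromosome 15, at 78325990-78351001 (+) and 78282517-78305604 (−) of mm10 in the deposited table. Their longest coding sequences in GENCODE M21 aligned over 2628 bases with 95.2% identity, and 334 words of 100 bases were shared by their transcripts, 4.63% of all such words of *Csf2rb* and 6.82% of those of *Csf2rb2*. Bases within a shared word do not tell the copies apart by themselves. The study's reads came in pairs, and where neither read of a pair holds a difference, the count rests on the estimate of the E/M tool. The stretch below was chosen because it holds more differences than any other ungapped stretch of its length examined. It shows coding bases 312 to 431 of *Csf2rb* and 315 to 434 of *Csf2rb2*, 5′ to 3′, with the 21 differing bases in capitals.
Csf2rb: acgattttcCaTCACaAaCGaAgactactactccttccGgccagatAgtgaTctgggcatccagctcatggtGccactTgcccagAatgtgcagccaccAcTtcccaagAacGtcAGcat
Csf2rb2: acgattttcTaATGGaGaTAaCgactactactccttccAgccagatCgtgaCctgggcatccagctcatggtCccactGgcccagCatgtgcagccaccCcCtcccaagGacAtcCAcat

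The factor with a call in the AC comparison between strains was *Csf1*, on chromosome 3 at 107741048-107760470 (−) of mm10. Whether *Csf1* lies within a NOD interval of SjSS mice is not given in the sources used here. The 250 bases before the RefSeq start site of *Csf1*, chr3:107760470-107760719 (−, GRCm38.p6), are shown with the match to a core of the kappaB motif in capitals.
Csf1: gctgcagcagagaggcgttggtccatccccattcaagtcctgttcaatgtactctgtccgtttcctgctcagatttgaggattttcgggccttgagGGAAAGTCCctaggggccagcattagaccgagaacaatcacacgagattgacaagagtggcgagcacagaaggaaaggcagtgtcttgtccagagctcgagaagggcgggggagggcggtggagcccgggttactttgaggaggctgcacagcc
The core was searched as GGNNNTTCC on both strands, and the match in *Csf1* began 154 bases before the start site on the minus strand of the printed sequence. RefSeq windows of 250 bases before to 50 after the start were given for 5 of the 8 members, and the same core was present in those of *Csf2*, *Csf2rb2* and *Csf3r* and not in that of *Csf2ra*. It was present in 18.5% of 32851 promoters of the same length. A match describes letters of the reference genome only, and the sequence in SjSS mice was not read. Of the other cores searched on both strands, TGANTCA of AP-1 (in 7.81% of promoters) and GAGATTCC, the CK-1 core (0.904%), were in none of the 5 windows. GAGGAA of PU.1 (28.3%) was in those of *Csf3r*, *Csf2rb2* and *Csf2ra*, and TTNNGNAA of C/EBP (40.7%) in those of *Csf2*, *Csf2rb2* and *Csf2ra*, with an overlap of both at 1 place in *Csf2rb2*.

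Total counts ranged from 30688288 to 57139640 per sample with a median of 47912516, and 15789 genes passed the filter on low counts. Of the 8 members, 7 passed it and *Csf2* did not. CPM values are counts relative to a library total that was scaled by TMM, a method that equalizes the bulk of the genes, and groups are given as mean ± SD of 3 samples. A gene was called where its log2 fold change exceeded 1.3 in either direction with an adjusted p under 0.05 from edgeR's quasi-likelihood test. Scaling mattered most in SjSS AC, where the median log2 fold change of all tested genes was −0.02 with TMM and −0.43 with unscaled library totals. For the macrophage label 8 marker genes were read, all of them in the table, and their summed level ranged from 13251 to 21539 CPM. *Lyz2* made up most of it, with group means from 8729 to 12472 CPM. Single markers were called in both directions. *Mrc1* was lower after ACs and after CpG in B6, and *Mertk* was lower after CpG in SjSS. *Cd14* was higher after CpG in both strains and after ACs in SjSS. *Adgre1* was higher after CpG in B6, and *Fcgr1* after ACs in SjSS. The sum describes levels and does not test the label. In bulk RNA, fewer cells of a type and less RNA per cell cannot be told apart.

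**Figure D1:**
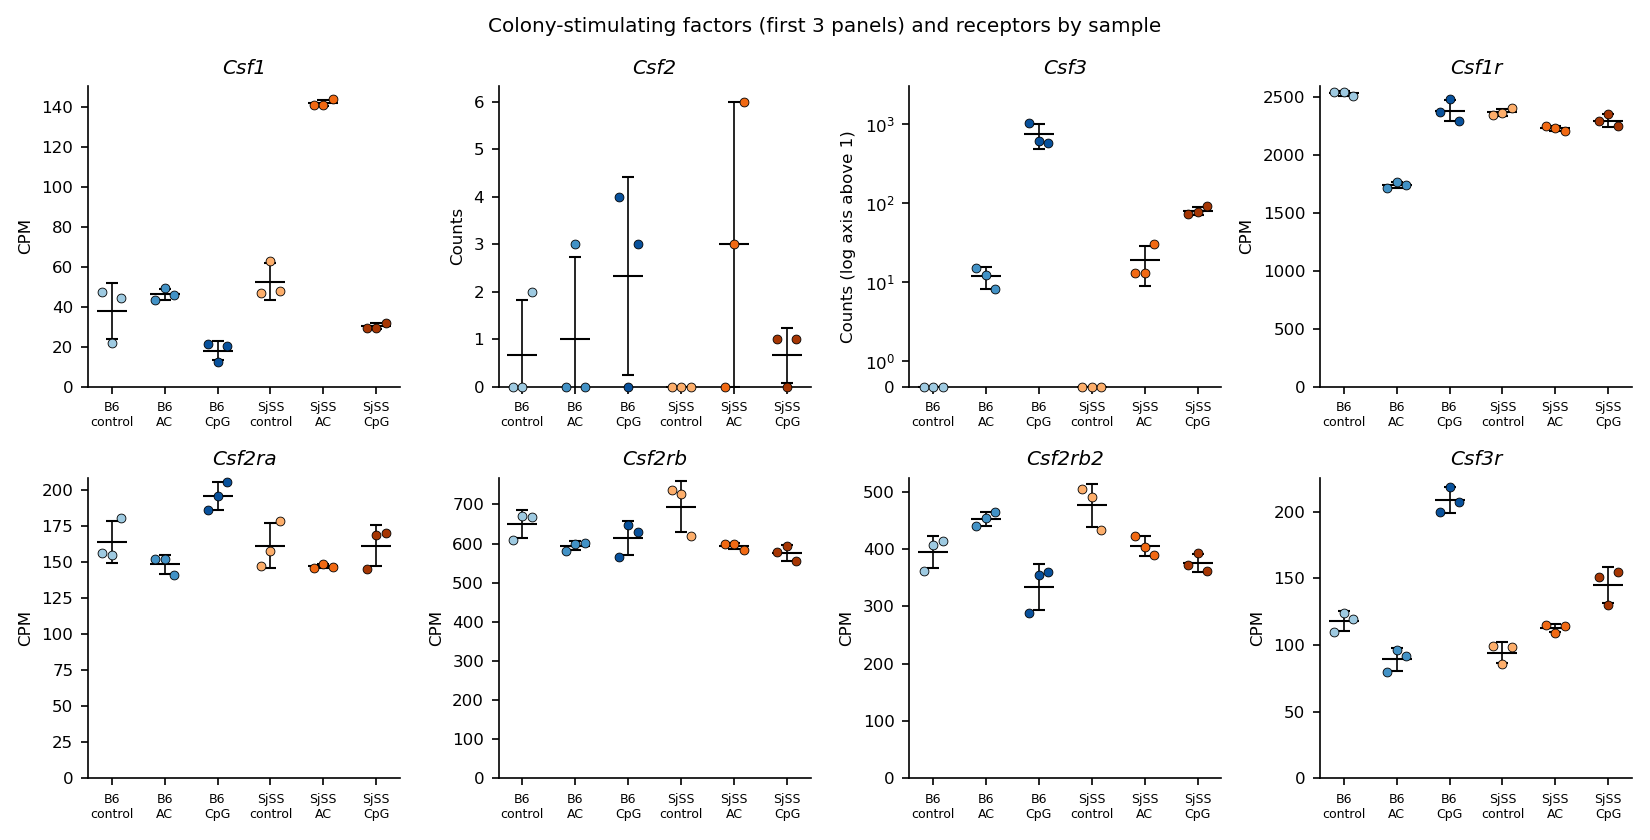
Level of each member in the 18 samples: CPM on the y axis, or counts for *Csf2* and *Csf3*, with the 6 groups on the x axis. Points are samples, bars are mean ± SD of 3, and the *Csf3* axis is logarithmic above 1 count. The *Csf1* points of SjSS AC (141 to 144 CPM) lie above all others, and *Csf3* is at 0 in all 6 control samples.

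Among the ligands, *Csf1* rose after ACs in SjSS and fell after CpG in both strains. Without treatment the B6 samples had 47.6, 22.1 and 44.2 CPM and the SjSS samples 46.9, 63.1 and 47.9 CPM, so that the groups overlapped. After ACs the B6 samples had 43.5, 49.4 and 45.7 CPM (46.2 ± 2.94, against 38.0 ± 13.8 in control), while SjSS samples had 141, 141 and 144 CPM (142 ± 1.68, against 52.6 ± 9.10 in control). Each SjSS AC sample was above every sample of the other 5 groups.

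The log2 fold change of *Csf1* with ACs was 1.43 (SE 0.20, adjusted p = 5.56e-06 by edgeR) in SjSS and 0.28 (SE 0.20, adjusted p = 0.306) in B6. The difference between these responses was 1.16 (SE 0.28, adjusted p = 0.00344), past the p threshold but under the fold threshold. Between strains, AC treated SjSS BMDMs had 3.07-fold the level of AC treated B6 BMDMs, a log2 difference of 1.62 (SE 0.20, adjusted p = 2.33e-06) that was called. With unscaled library totals the response in SjSS was 1.02 (adjusted p = 0.000214) and no longer called, and the strain difference with ACs was 1.32 and still called. Relative to the median of all genes under that scaling the response was 1.45. The B6 control sample with the number 2 decided part of these values: without it the *Csf1* response to ACs in B6 was 0.01, and the difference between responses rose to 1.42 and was called. Without the SjSS control sample with the number 2, that difference was 1.3 and was also called.

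After CpG the *Csf1* level was 21.2, 12.5 and 20.4 CPM in B6 and 29.6, 29.4 and 32 CPM in SjSS. All 6 samples were below the lowest control sample of their own strain. The decrease was to 0.477-fold in B6 (log2 fold change −1.07, SE 0.21, adjusted p = 0.000238) and to 0.578-fold in SjSS (−0.79, SE 0.21, adjusted p = 0.00307), neither past the fold threshold, and the responses differed by 0.28 (SE 0.29, adjusted p = 0.654). Without the B6 control sample with the number 2 the decrease in B6 was −1.34 and was called. SjSS CpG samples were above B6 CpG samples, at 1.67-fold (adjusted p = 0.0189).

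*Csf1* is also made by fibroblasts and stromal cells, so 6 of their markers were read beside it, all of them in the table. Their summed level ranged from 43.6 to 133 CPM in B6 control, from 77.9 to 115 CPM in B6 AC and from 38.6 to 96.8 CPM in B6 CpG. It was higher in SjSS, with ranges of 164 to 228 CPM in control, 186 to 233 CPM in AC and 148 to 195 CPM in CpG samples. The collagen genes *Col1a1* (36.4 ± 18.8 CPM in B6 control and 88.6 ± 16.5 in SjSS control) and *Col1a2* (48.1 ± 23.3 and 100.3 ± 15.1) made up most of it.

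In B6, the sample with the number 2 had the lowest marker sum and the lowest *Csf1* level of its group in both control and CpG. In B6 AC, that sample had the highest *Csf1* level (49.4 CPM) at a marker sum of 89.2 CPM, and the sample with the highest marker sum (115 CPM) had the lowest *Csf1* level (43.5 CPM). In SjSS control, the sample with the number 2 had the highest marker sum (228 CPM) and the highest *Csf1* level (63.1 CPM). In SjSS AC and in SjSS CpG, the sample with that number had the highest marker sum and the lowest *Csf1* level. The SjSS control and AC samples overlapped in the marker sum. Their *Csf1* levels were 46.9 to 63.1 CPM in control and 141 to 144 CPM with ACs. The part of stromal RNA in the *Csf1* values, between strains or treatments, was not tested.

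**Figure D2:**
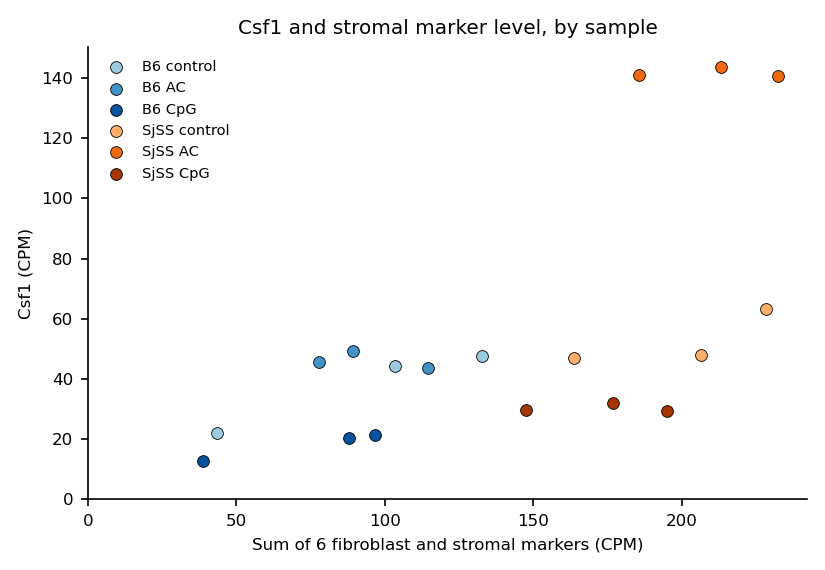
*Csf1* level (CPM, y axis) against the summed level of 6 fibroblast and stromal markers (CPM, x axis), 1 point per sample, coloured by group. At marker sums between 164 and 233 CPM the SjSS AC points lie near 142 CPM of *Csf1* and the SjSS control points between 46.9 and 63.1 CPM.

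*Csf2*, on chromosome 11 at 54247271-54249668 (−), was close to absent in every group. The counts were 0, 0 and 2 in B6 control, 0, 3 and 0 in B6 AC, and 4, 0 and 3 in B6 CpG. In SjSS they were 0, 0 and 0 in control, 0, 3 and 6 in AC, and 1, 0 and 1 in CpG. Every treated group overlapped its control group.

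For SjSS, a floor of 3 counts over the group was put in place of the 0 counts in control. The 9 counts in SjSS AC, taken as they stood, gave a ratio of 3.29 to that floor, relative to the scaled library totals. In B6 the ratio of CpG to control was 4.38 (exact 95% interval 0.834 to 43.2), and between strains the ratio of SjSS AC to B6 AC was 3.40 (0.847 to 19.5). Both intervals include equality. Without the filter on low counts, edgeR gave *Csf2* an adjusted p of 0.0540 in the SjSS AC response and did not call it there. The intervals cover counting error only, and a ratio to the floor has no interval.

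*Csf3*, on chromosome 11 at 98701263-98703630 (+), rose from 0 with both stimuli in both strains. It had 0 counts in all 6 control samples. After ACs, B6 samples had 15, 12 and 8 counts and SjSS samples had 13, 13 and 30. After CpG, B6 samples had 1022, 605 and 562 counts, and SjSS samples had 72, 76 and 90. No treated sample overlapped the controls.

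With the same floor in place of the 0 counts of the control groups, the *Csf3* ratio after ACs was 13.1 in B6 and 20.4 in SjSS. After CpG the ratio was 913 in B6 and 88.3 in SjSS. The treated counts were again taken as they stood. *Csf3* passed the test in each of these 4 responses (edgeR adjusted p = 0.000211, 1.28e-05, 2.24e-11 and 2.75e-08 in that order). The call for ACs in B6 rests on 35 counts in all, and it was lost when only the B6 control and B6 AC samples were fitted, since the gene then fell under the filter.

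The strains differed in the *Csf3* level after CpG. B6 CpG samples had 20.6, 16.1 and 12.2 CPM (16.3 ± 4.20) and SjSS CpG samples had 1.62, 1.88 and 2.06 CPM (1.85 ± 0.219), without overlap. The level in B6 was 8.89-fold that in SjSS (exact 95% interval 7.77 to 10.2, counting error only), a log2 difference of SjSS against B6 of −3.14 (SE 0.24, adjusted p = 4.39e-07 by edgeR) that was called. After ACs the order of the means was the other way, at 0.427 ± 0.215 CPM in SjSS and 0.234 ± 0.0601 CPM in B6, but the samples overlapped and the difference of 0.85 (SE 0.40) had an adjusted p of 0.0944. Since *Csf3* was at 0 in control samples of both strains, the fit could not estimate a difference between responses for it.

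Among the receptors, *Csf1r* on chromosome 18 at 61105572-61132150 (+) was by far the most abundant member and moved little. Its samples lay at 2508 to 2547 CPM in B6 control and fell to 1718, 1767 and 1745 CPM in B6 AC, a log2 fold change of −0.54 (SE 0.05, adjusted p = 3.27e-08) under the fold threshold. In SjSS the level was 2370 ± 30.5 CPM in control and 2231 ± 20.8 CPM after ACs, a log2 fold change of −0.09 (SE 0.05, adjusted p = 0.115). The responses differed by 0.45 (SE 0.07, adjusted p = 2.15e-05) with TMM. With unscaled library totals the response was −0.61 in B6 and −0.50 in SjSS, and the difference was 0.11 (adjusted p = 0.16), so the strain difference in the *Csf1r* response depended on the scaling. CpG gave −0.09 (adjusted p = 0.112) in B6 and −0.04 (adjusted p = 0.437) in SjSS.

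*Csf3r*, on chromosome 4 at 126024550-126044441 (+), rose after CpG in both strains. B6 samples went from 110, 124 and 119 CPM in control to 199, 219 and 207 CPM after CpG, and SjSS samples from 98.9, 85.5 and 98.4 CPM to 151, 130 and 155 CPM. Neither strain's groups overlapped. The increase was 1.77-fold in B6 (log2 fold change 0.82, SE 0.08, adjusted p = 3.46e-08) and 1.54-fold in SjSS (0.62, SE 0.08, adjusted p = 1.94e-06), under the fold threshold. The responses differed by −0.20 (SE 0.11, adjusted p = 0.329), and the direction was upward in both strains with unscaled totals as well (0.64 and 0.49).

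With ACs *Csf3r* fell in B6, to 79.5, 96.2 and 91.9 CPM (log2 fold change −0.40, SE 0.08, adjusted p = 0.000501). In SjSS it was at 115, 109 and 114 CPM, a log2 fold change of 0.25 (SE 0.08, adjusted p = 0.0101) that turned to −0.16 (adjusted p = 0.0700) with unscaled totals. The difference between the AC responses was 0.66 (SE 0.11, adjusted p = 0.000134) and 0.31 (adjusted p = 0.0205) under these scalings. Between strains *Csf3r* was lower in SjSS without treatment (−0.32, adjusted p = 0.00836) and with CpG (−0.52, adjusted p = 0.000106), and higher in SjSS with ACs (0.34, adjusted p = 0.00175; 0.04, adjusted p = 0.683, with unscaled totals). With CpG, both G-CSF and its receptor had lower mRNA levels in SjSS.

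Neutrophils carry *Csf3r*, and 6 of 10 of their markers had a row in the table, while *Elane*, *Ly6g*, *Mpo* and *Retnlg* had none. Their summed level ranged from 3.65 to 5.26 CPM in B6 control and from 11.2 to 13.2 CPM in B6 CpG. It ranged from 2.66 to 3.22 CPM in SjSS control and from 5.68 to 6.07 CPM in SjSS CpG. With ACs it ranged from 3.12 to 3.57 CPM in B6, below every B6 control sample, and from 2.49 to 3.20 CPM in SjSS. *S100a8* made up most of it (9.41 ± 1.47 CPM in B6 CpG). This sum moved with CpG as *Csf3r* did, and its increase lay mostly in *S100a8* and *Camp*. From control to CpG in B6, *S100a8* went from 594 to 1236 counts over the group and *Camp* from 7 to 247. In SjSS they went from 396 to 602 and from 0 to 127. The other markers had fewer counts. In B6 *S100a9* went from 74 to 109, *Ltf* from 27 to 20, *Ngp* from 27 to 29 and *Cxcr2* from 6 to 7. In the same order, SjSS had 2 to 5, 5 to 4, 0 to 7 and 22 to 7. From control to AC in B6, *S100a8* went from 594 to 475 counts, *S100a9* from 74 to 4 and *Ltf* from 27 to 6. *Ngp* went from 27 to 2 there, *Cxcr2* from 6 to 0 and *Camp* from 7 to 13. From control to AC in SjSS, *S100a8* went from 396 to 289, *S100a9* from 2 to 12 and *Ltf* from 5 to 10. *Ngp* went from 0 to 7 there, *Cxcr2* from 22 to 5 and *Camp* from 0 to 39. The part of neutrophils in the *Csf3r* values was not tested.

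*Csf2ra* on chromosome 19 at 61224402-61228419 (−) kept between 141 and 206 CPM in all 18 samples. It was higher after CpG in B6, where samples went from 156, 155 and 181 CPM to 186, 196 and 206 CPM (log2 fold change 0.26, SE 0.08, adjusted p = 0.00727), and with unscaled totals this was 0.08 (adjusted p = 0.441). In SjSS the CpG value was 0.00 (adjusted p = 0.998), and the AC values were −0.14 in B6 (adjusted p = 0.157) and −0.13 in SjSS (adjusted p = 0.155). With CpG, SjSS BMDMs had 0.824-fold the *Csf2ra* level of B6 BMDMs (adjusted p = 0.0136).

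The beta chain genes decreased in SjSS with both stimuli. *Csf2rb* samples were at 736, 727 and 620 CPM in SjSS control, at 599, 598 and 584 CPM after ACs and at 580, 593 and 555 CPM after CpG. The log2 fold changes were −0.22 (SE 0.07, adjusted p = 0.00682) with ACs and −0.27 (SE 0.07, adjusted p = 0.00191) with CpG, against −0.13 (adjusted p = 0.143) and −0.08 (adjusted p = 0.310) in B6. The differences between the strains' responses did not pass the test for *Csf2rb* (−0.10, adjusted p = 0.459, with ACs and −0.19, adjusted p = 0.268, with CpG). With unscaled totals the B6 values also passed the p threshold, at −0.20 (adjusted p = 0.0159) with ACs and −0.26 (adjusted p = 0.00128) with CpG, and the AC responses of the strains differed by −0.44 (adjusted p = 0.000384).

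The AC response of *Csf2rb2* differed between the strains. In B6 its samples were at 362, 406 and 414 CPM in control and at 440, 453 and 464 CPM after ACs, a log2 fold change of 0.20 (SE 0.08, adjusted p = 0.0509). In SjSS they were at 504, 491 and 434 CPM in control and at 423, 404 and 389 CPM after ACs, a log2 fold change of −0.23 (SE 0.08, adjusted p = 0.0162). The difference between these responses was −0.43 (SE 0.11, adjusted p = 0.00456) and was −0.77 with unscaled totals, where the B6 value was 0.13 (adjusted p = 0.207). CpG lowered *Csf2rb2* in both strains, by −0.24 in B6 (adjusted p = 0.0136) and by −0.34 in SjSS (adjusted p = 0.00106). Untreated SjSS BMDMs had 1.21-fold the level of untreated B6 BMDMs (adjusted p = 0.0196).

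**Figure D3:**
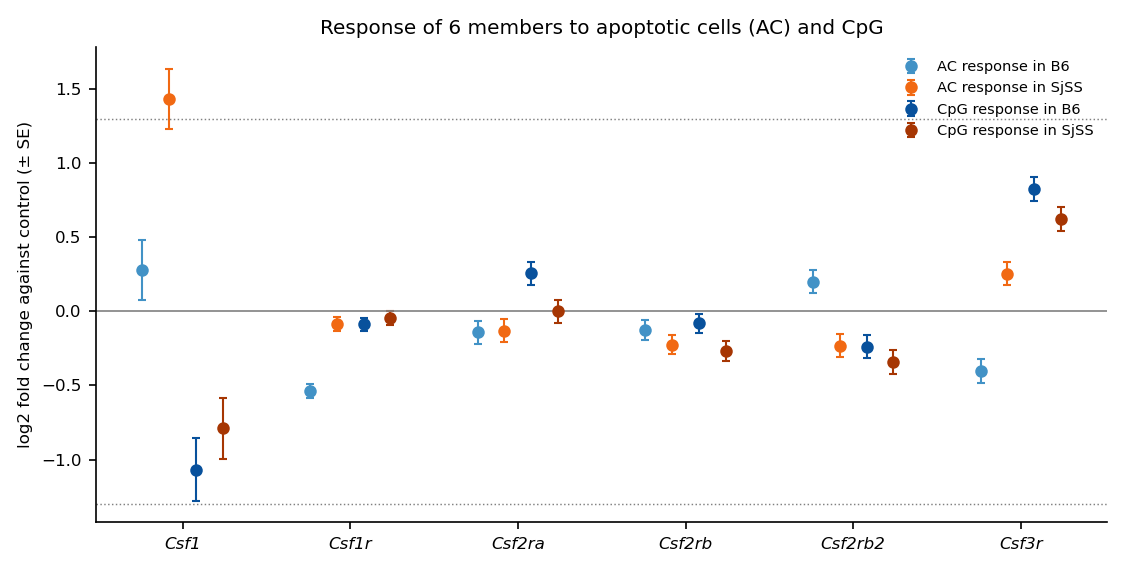
log2 fold change against control (y axis, ± SE from edgeR, TMM scaling) of 6 members (x axis) with ACs and with CpG in each strain. Dotted lines mark the fold threshold of 1.3 in either direction. *Csf1* with ACs in SjSS (1.43) is the value past it.

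The share of *Csf2rb2* in the summed counts of the pair does not depend on how libraries are scaled. In B6 it was 37.3, 37.7 and 38.2% in control, 43.1, 43.1 and 43.5% after ACs and 33.7, 35.4 and 36.3% after CpG. The groups did not overlap, and the mean moved by 5.48 percentage points with ACs and by −2.59 with CpG. In SjSS it was 40.6, 40.3 and 41.2% in control, 41.4, 40.3 and 40.0% after ACs and 39.1, 39.8 and 39.5% after CpG. Only the SjSS AC samples overlapped their controls, with a change of −0.15 percentage points (exact permutation test, two-sided, p = 0.7). In the 6 other comparisons of the share, within and between strains, groups were separate and the exact two-sided permutation p was 0.1, the smallest that 3 samples against 3 allow. When the counts of both copies were summed before the fit, the B6 AC response was 0.01 and the SjSS responses were −0.23 with ACs and −0.30 with CpG.

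**Figure D4:**
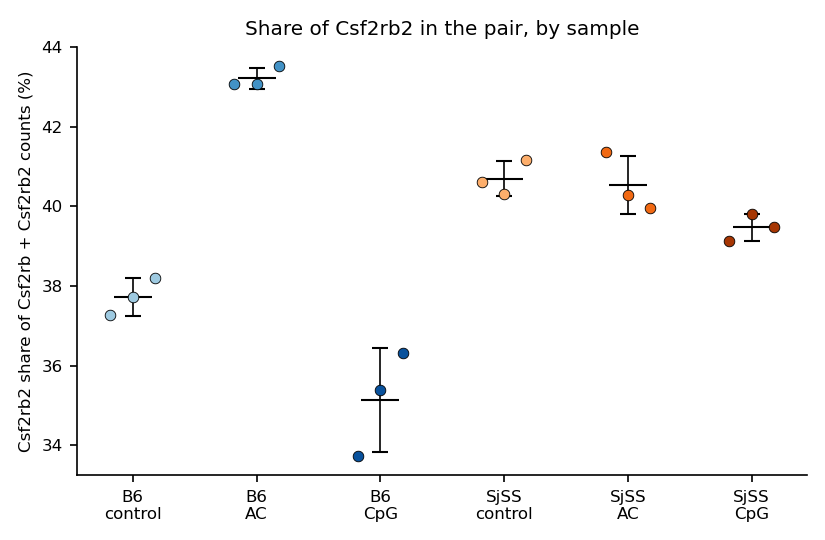
Share of *Csf2rb2* in the summed counts of *Csf2rb* and *Csf2rb2* (%, y axis, not starting at 0) in each group (x axis). Points are samples and bars are mean ± SD of 3. The B6 AC samples are highest (43.2 ± 0.260%) and the B6 CpG samples lowest (35.1 ± 1.3%). The SjSS group means lie between 39.5 and 40.7%, and the SjSS samples between 39.1 and 41.4%.

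Counted over the family, the treatment responses held few calls. With ACs 1 of the 7 tested members was called in B6 (*Csf3*) beside 4.47% of all tested genes, and 2 in SjSS (*Csf3* and *Csf1*) beside 12.9%. With CpG 1 was called in each strain (*Csf3*), beside 12.7% of all genes in B6 and 9.26% in SjSS. At an adjusted p under 0.05 with no fold threshold the member counts were 3 with ACs in B6 (38.3% of all genes), 5 with ACs in SjSS (58.0%), 5 with CpG in B6 (57.9%) and 5 with CpG in SjSS (54.2%). With 7 tested members these counts are given beside the shares of all genes, and nothing particular to the family was read from them.

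Between strains 0 members were called without treatment (2.01% of all genes), by edgeR and by DESeq2. There 2 members, *Csf2rb2* and *Csf3r*, passed the adjusted p alone (19.6%), and 3 had an unadjusted p under 0.05, *Csf1* among them (0.0342). With ACs 1 was called, *Csf1* (8.93%), and 3 passed the adjusted p alone (49.4%). With CpG 1 was called, *Csf3* (2.61%), and 4 passed the adjusted p alone (19.7%).

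In the difference between the strains' AC responses 0 members were called (7.53%), by edgeR and by DESeq2, while 4 passed the adjusted p alone (37.9%). In the difference between the CpG responses 0 members were called by both tools (0.614%) and 0 passed the adjusted p alone (5.85%). There 1 member, *Csf2ra*, had an unadjusted p under 0.05 (0.0286). The counts for both differences leave *Csf3* undecided, since it was at 0 in the control samples of both strains. The fit could not estimate a difference between responses for it.

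Levels of different members were compared as CPM per kb of merged exons. *Csf1r* was highest in all 6 groups, with group means from 302 to 438. *Csf2rb* (79.1 to 95.4) and *Csf2rb2* (70.4 to 100.4) came next. Their samples overlapped in B6 control and in the 3 SjSS groups, while *Csf2rb2* was above *Csf2rb* in B6 AC and below it in B6 CpG. *Csf2ra* followed at 51.3 to 68.3 and *Csf3r* at 24.7 to 57.8, and *Csf2ra* overlapped *Csf2rb2* in B6 CpG alone. *Csf1* came next at 3.42 to 26.9, except in B6 CpG, where *Csf3* at 11.5 ± 2.97 was above *Csf1* at 3.42 ± 0.910 without overlap. *Csf3* otherwise reached at most 1.31 and *Csf2* at most 0.0824 CPM per kb. The annotation used for lengths and the deposited table placed 4 of the 8 genes at the same position (*Csf1*, *Csf2*, *Csf3* and *Csf3r*), and for the others the length is less certain. With the longest coding transcript as the length, *Csf2rb* was above *Csf2rb2* in all 6 groups (for example 142 against 100.4 in SjSS control), *Csf2ra* was above *Csf2rb2* in B6 CpG (106 against 70.4), and *Csf1* was above *Csf3r* in SjSS AC.

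Genes downstream of these receptors were read from lists. The list of JAK-STAT signalling and feedback, used by the GM-CSF, IL-3 and G-CSF receptors, had 15 genes, all tested. With ACs 2 were called higher in B6 (4.47% of all tested genes called) and 6 in SjSS (12.9%), with a median log2 fold change of 0.13 and 0.94 beside 0.00 and −0.02 over all tested genes. *Socs1* and *Socs3*, which encode feedback inhibitors of cytokine receptors, led both. *Socs1* rose from 3.10 ± 0.365 to 12.0 ± 1.87 CPM in B6 and from 2.02 ± 0.523 to 313 ± 19.1 CPM in SjSS, where the log2 fold change was 7.31. *Socs3* rose by 1.63 in B6 and 5.05 in SjSS on the log2 scale. The difference between the AC responses was called for 5 genes of the list (7.53% of all tested genes), all higher in SjSS, with 5.35 for *Socs1* and 3.42 for *Socs3* (adjusted p = 1.27e-11 and 3.16e-10). The others were the kinase genes *Pim1* (2.30) and *Jak2* (1.67) and *Cish*, a target of STAT5 (2.19). Interferon and other cytokine receptors also use these genes, and which receptor acted was not tested.

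With CpG the list had 6 increases and 2 decreases in B6 (12.7% of all tested genes called) and 5 increases with 1 decrease in SjSS (9.26%; medians 0.55 and 0.49, against −0.04 and −0.01 over all genes). *Socs3* rose by 5.82 in B6 and by 5.87 in SjSS, and *Socs1* by 2.72 and 2.27. *Socs2*, another feedback inhibitor, fell in both strains (−3.21 and −1.81), and the difference of 1.40 was called (adjusted p = 0.0427). *Cish* fell by 1.44 in B6 and had −0.09 in SjSS, and this difference was also called (1.34, adjusted p = 0.0115). In all, the difference between CpG responses was called for these 2 genes of the list, beside 0.614% of all tested genes.

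**Figure D5:**
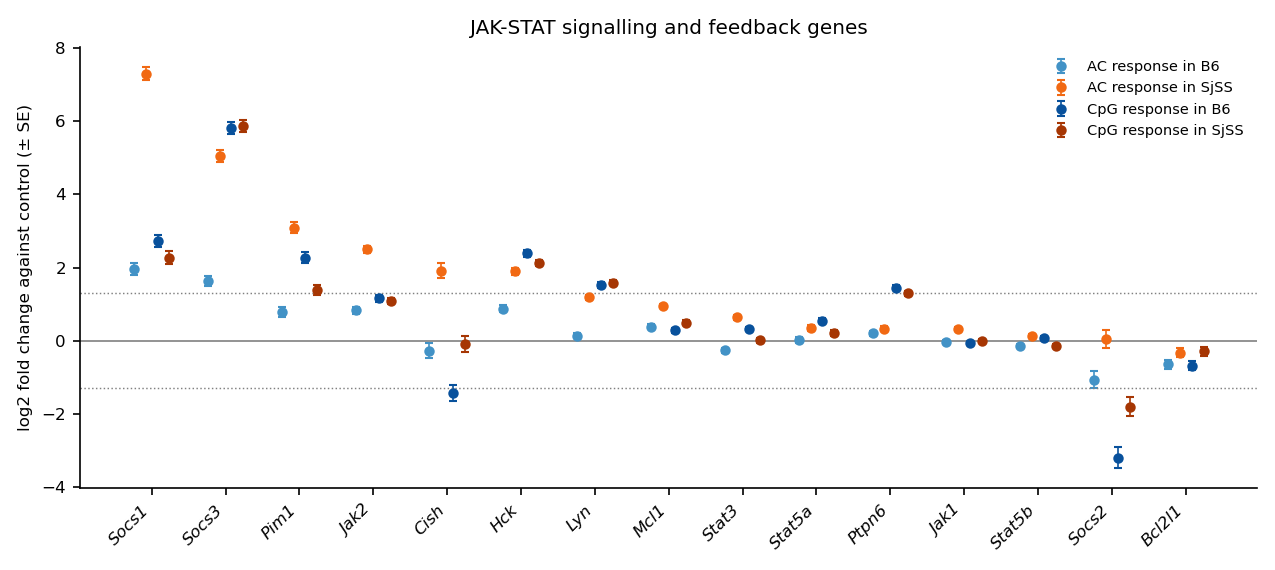
log2 fold change against control (y axis, ± SE from edgeR) of the 15 JAK-STAT signalling and feedback genes (x axis, ordered by the AC response in SjSS) in the 4 treatment responses. Dotted lines mark the fold threshold of 1.3. *Socs1* with ACs in SjSS is highest (7.31), and *Socs2* with CpG in B6 is lowest (−3.21).

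The list of CSF1R signalling and shedding had 13 genes, all tested, and stayed largely under the fold threshold. With ACs 0 were called in B6, by edgeR and by DESeq2, while 7 had an unadjusted and 6 an adjusted p under 0.05 (38.3% of all tested genes at an adjusted p under 0.05). In SjSS 1 gene was called, *Rhbdf2* (12.9% of all tested genes called), a partner of the sheddase ADAM17 that releases CSF1R and other proteins from the cell surface. It rose to 241 ± 2.47 CPM, from a control mean of 73.5 CPM (log2 fold change 1.72, adjusted p = 9.35e-13), had 0.00 in B6 (adjusted p = 0.987), and the difference between the AC responses was called (1.72, adjusted p = 8.57e-10). With CpG *Sos1*, an exchange factor of RAS, was called higher in B6 (1.33, and 1.15 and not called with unscaled totals), and 0 were called in SjSS by edgeR and by DESeq2, where 10 had an unadjusted and 9 an adjusted p under 0.05 (54.2% of all tested genes at an adjusted p under 0.05). The medians were −0.00 and 0.17 with ACs and 0.24 and 0.26 with CpG, in B6 and SjSS, and the median with ACs in SjSS was −0.25 with unscaled totals.

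Of 6 factors that act on *Csf1r* transcription, 0 were called with ACs in B6 by edgeR and by DESeq2, where 5 had a p under 0.05, unadjusted and adjusted alike (38.3% of all tested genes at an adjusted p under 0.05, list median −0.22). In SjSS *Ets2* rose with ACs (log2 fold change 1.73), and *Cebpa* (−2.04) and *Fli1* (−1.32) fell (12.9% of all tested genes called, list median −0.13). By DESeq2 *Fli1* was just under the fold threshold and was not called. With CpG *Ets2* rose in B6 and SjSS (1.79 and 2.46), and *Cebpa* fell (−2.34 and −1.87; medians −0.32 and −0.29). *Cebpa* encodes a myeloid transcription factor and had 609 ± 42.2 CPM in B6 control. The difference between the AC responses was called for *Cebpa* (−1.32, adjusted p = 5.90e-07), in the direction of a larger decrease in SjSS, and by DESeq2 it was −1.29 and not called.

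The list of AU-rich mRNA decay and stability had 9 genes, all tested. With ACs 0 were called in B6 by edgeR and by DESeq2, where 7 had a p under 0.05, unadjusted and adjusted alike (38.3% of all tested genes at an adjusted p under 0.05, list median 0.04). In SjSS *Arid5a*, which encodes an RNA-binding protein that stabilizes cytokine mRNA, rose from 11.2 ± 1.41 to 132 ± 7.45 CPM (3.56), and *Zfp36*, which encodes the decay factor tristetraprolin, rose by 1.79. *Zfp36l1* fell there by 2.28 (12.9% of all tested genes called, list median 0.52). With CpG *Zc3h12a*, the gene of the RNase Regnase-1, rose by 1.98 in B6 and 2.16 in SjSS, and *Zfp36* was called in B6 (1.43, and 1.25 and not called with unscaled totals) and had 0.74 in SjSS, a difference past the p threshold but under the fold threshold (adjusted p = 0.00219). *Zfp36l1* fell in both strains (−2.52 and −2.38, list medians −0.05 and 0.26). The difference between AC responses was called for *Arid5a* (4.19) and *Zfp36l1* (−1.36), beside 7.53% of all tested genes.

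Of 7 genes known to respond to GM-CSF, 6 were in the table and 5 were tested. With ACs 2 were called in B6 and 3 in SjSS (4.47 and 12.9% of all tested genes), and with CpG 3 in B6 and 2 in SjSS (12.7 and 9.26%). *Ccl22*, a chemokine gene, was called higher in all 4 responses (2.05 with ACs and 3.34 with CpG in B6, 4.13 and 3.18 in SjSS) at low levels of at most 1.96 ± 0.477 CPM. *Itgax* fell by 1.69 with ACs in B6, from 24.3 ± 5.51 to 7.52 ± 0.766 CPM, and its level in SjSS AC was 25.4 ± 1.68 CPM. *Irf4* fell with ACs in SjSS (−1.35) and with CpG in B6 and SjSS (−1.92 and −1.56). *Cish* rose by 1.92 with ACs in SjSS and fell by 1.44 with CpG in B6. The difference between the AC responses was called for *Cish* (2.19, adjusted p = 4.42e-06), *Ccl22* (2.08, adjusted p = 0.0338) and *Itgax* (1.64, adjusted p = 1.35e-06), all higher in SjSS. With unscaled totals *Ccl22* (1.74, adjusted p = 0.0587) and *Itgax* (1.29, under the fold threshold) were no longer called there. The list medians were −0.28 and −0.06 with ACs and −0.40 and −0.31 with CpG, in B6 and SjSS.

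The list of other haematopoietic growth factors and receptors had 15 genes, with 10 in the table and 7 tested. With ACs 1 was called in B6 and 2 in SjSS (4.47 and 12.9% of all tested genes), and with CpG 4 in B6 and 1 in SjSS (12.7 and 9.26%). *Kitl*, the gene of stem cell factor, rose from 2.47 ± 0.358 to 9.0 ± 0.406 CPM with ACs in SjSS (1.86, adjusted p = 1.57e-08), and the difference between the AC responses was called (2.12, adjusted p = 2.34e-06). *Il7* rose by 2.63 there from 9 counts over the control group. In B6 *Epor*, the erythropoietin receptor gene, fell by 1.35 with ACs. With CpG in B6 *Kit* and *Il7* were called higher (1.99 and 1.31, with *Il7* at 1.13 and not called with unscaled totals), both under 1 CPM in all groups, while *Epor* (−3.26) and *Flt3l* (−1.68) fell, and *Epor* fell in SjSS as well (−2.38). The list medians were −0.02 and 0.29 with ACs and −0.59 and −0.48 with CpG, in B6 and SjSS. *Il34*, the gene of the other ligand of CSF1R, did not pass the filter, with between 7 and 30 counts over each group, the most in SjSS AC.

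Thymocyte RNA could add reads to AC samples, so 11 T cell and thymocyte markers were read, all of them in the table. Their summed level was 8.12 to 10.2 CPM in B6 control and 4.53 to 5.11 CPM in B6 AC, and 10.3 to 11.7 CPM in SjSS control and 14.2 to 19.0 CPM in SjSS AC. *Cd4* made up most of it (14 ± 2.74 CPM in SjSS AC), whereas *Cd3d*, *Cd3e*, *Cd3g* and *Trac* had group means of at most 0.127 CPM. *Rag1*, which thymocytes use to rearrange their receptor genes, had 0 counts in all control and CpG samples, 7, 9 and 8 counts in B6 AC and 1, 1 and 1 in SjSS AC. *Cd8a* went from 0, 1 and 0 counts in B6 control to 7, 5 and 14 in B6 AC, and had 9, 0 and 3 in SjSS control and 6, 1 and 3 in SjSS AC. With ACs in SjSS *Lck* (log2 fold change 2.11, adjusted p = 0.000803) and *Cd247* (3.77, adjusted p = 2.04e-05) were called higher, at group means of at most 0.651 CPM. The part of thymocyte RNA in the AC values of the members was not tested.

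The dendritic cell sum, over 6 markers, ranged from 1.17 to 1.69 CPM in B6 control, from 1.20 to 1.44 CPM in B6 AC and from 1.51 to 2.43 CPM in B6 CpG. In SjSS it ranged from 1.45 to 1.74 CPM in control and from 2.80 to 3.75 CPM in AC samples. SjSS CpG samples had 2.32 to 2.72 CPM. Each treated SjSS sample thus had a higher sum than every SjSS control sample. With ACs in SjSS the mean of *Xcr1* rose from 0.279 to 2.13 CPM. *Clec9a* (0.536 to 0.263 CPM) and *Ccr7* (0.349 to 0.232 CPM) had lower means there, and the other markers reached at most 0.515 CPM. *Siglech* had under 20 counts in total. The mast cell and basophil sum, over the 2 of 5 markers in the table, was 0.688 ± 0.148 CPM in SjSS control and 1.18 ± 0.40 CPM in SjSS AC, and group means in B6 were at most 0.471 CPM. The part of these cells in the *Csf1* values was not tested.

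The genes most like each member across the 18 samples were found by Pearson's r of log2 CPM and are given as a description, since samples share group and library. *Csf1* was most like *Rgs16* (r = 0.978), *Ctnnal1* (0.943) and *Cyr61* (0.943). *Csf3* was most like *Psma6* (0.991), *Stard5* (0.990) and *Eml2* (0.989). *Csf1r* was most like *St8sia4* (0.95), *Anxa3* (0.937) and *Tmem50b* (0.931), and *Csf3r* most like *Sema4c* (0.966), *Alpk1* (0.962) and *St3gal4* (0.953). *Csf2rb2* was most like *Slc6a8* (0.942), *Otud7b* (0.935) and *Ptger2* (0.930). The values were lower for *Csf2ra* with *Gcn1l1* (0.931), *Mvk* (0.882) and *Ipo13* (0.863), and for *Csf2rb* with *Tmem87b* (0.843), *Nf2* (0.821) and *Rnf167* (0.815). *Csf2rb* and *Csf2rb2* were thus not among the 3 genes most like each other.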

How the data were processed

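The deposited values were estimated counts per gene that the authors made with STAR (mm10) and the E/M quantification of Partek, without normalization. Of these values 41.1% were not whole (tolerance 1e-06), and they were rounded before any test. Whether the counting used strand is not given in the sources used here.

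Counts were tested in R 4.3.3 with edgeR 4.0.16 (quasi-likelihood, filterByExpr, TMM, a mean for each of 6 groups over all 18 samples, Benjamini-Hochberg adjustment within each of 9 comparisons: the AC and CpG responses in each strain, the 3 strain differences and both interactions). The thresholds were an adjusted p of 0.05 and a log2 fold change of 1.3. Standard errors were the log2 fold change divided by the square root of F. Other steps used scipy 1.17.1, pandas 2.3.3 and matplotlib 3.10.9 in Python 3.11.15. The pipeline was tested on simulated data.

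The members and lists were chosen with earlier results of these data known. Named are the 8 members, the 3 genes most like each tested member, and marker genes where a result turns on them. Of each of 6 pathway lists, the 2 called genes with the largest increase and the 2 with the largest decrease in each treatment response are named. Pathway genes with a called interaction were added after their values were seen. So were several marker genes, among them *Rag1*, *Cd8a*, *Lck*, *Cd247*, *Xcr1*, *Camp* and *Mrc1*.

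In the B6 CpG comparison alone, every pair of same-numbered samples deviated together at r over 0.1 (0.137 to 0.264). Alternatives were DESeq2 1.42.0, its size factors, other filters, no fold threshold, fits of compared groups, the replicate number as a block, single samples left out, unrounded counts, summed beta chain copies and plain totals for levels; a block nested in strain, another exon length and library totals in the fit were chosen after seeing the data.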

Additional observations from a re-analysis of the deposited data

Results flagged for a closer look

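The AC response differed between strains for 4 members at an adjusted p under 0.05 by edgeR, none of them past the fold threshold. The difference of SjSS against B6 on the log2 scale was 1.16 for *Csf1* (0.28 in B6 and 1.43 in SjSS), 0.45 for *Csf1r* (−0.54 and −0.09), −0.43 for *Csf2rb2* (0.20 and −0.23) and 0.66 for *Csf3r* (−0.40 and 0.25). With unscaled library totals these values were 0.82 (adjusted p = 0.0246), 0.11 (adjusted p = 0.16), −0.77 (adjusted p = 1.04e-05) and 0.31 (adjusted p = 0.0205). With that scaling the difference also passed the p threshold for *Csf2rb* (−0.44, adjusted p = 0.000384) and *Csf2ra* (−0.33, adjusted p = 0.0243), which had −0.10 and 0.01 with TMM.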

How the results depend on the processing

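Without a fold threshold 3, 5, 5 and 5 members passed in the AC responses of B6 and SjSS and the CpG responses of B6 and SjSS, and 2, 3, 4 and 4 in the strain differences (untreated, AC, CpG) and in the difference between AC responses. Fitting only the compared groups left 0 members in the B6 AC response, because *Csf3* fell under the filter. Library totals left 1 in the SjSS AC response (*Csf3*). Leaving out single samples gave 1 to 2 members in the B6 CpG response (2 without B6 control number 2) and 0 to 1 in the difference between AC responses (1 without B6 or SjSS control number 2), each change being *Csf1*. DESeq2, its size factors and the other filters kept every member count.

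With the replicate number as a block, or nested in strain, the member counts were the same as without it. They were 1, 2, 1 and 1 in the 4 responses, 0, 1 and 1 in the strain differences and 0 and 0 in the interactions. Outside the B6 CpG comparison not every same-number correlation passed 0.1. They ranged from 0.0198 to 0.193 in B6 AC, from 0.0272 to 0.105 in SjSS AC and from 0.0593 to 0.142 in SjSS CpG. All 6 samples correlated best with their own number in the SjSS AC, SjSS CpG and B6 CpG comparisons, and 2 of 6 in B6 AC. This is a hint of shared mice from the data alone. Between strains, where no mouse can be shared, same-number correlations were −0.0721 to 0.0155. No called member value reversed. Uncalled values changed sign 35 times, counted once for each value and alternative fit, so that 1 value can count more than once. Library totals lowered the share of called genes that were higher from 54.9 to 29.7% in the SjSS AC response, from 46.0 to 35.1% in the B6 CpG response, from 51.9 to 41.9% in the SjSS CpG response, from 69.9 to 45.9% in the strain difference with ACs and from 63.2 to 35.8% in the difference between AC responses. Plain totals moved 20 and the longest coding transcript 23 of 48 levels per kb by more than 1 SD. Low counts limit *Csf2* and *Csf3* with ACs. The cause of these shifts was not tested.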
